A study of Mus musculus with 6 samples.

Results

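The 10 genes described here are core genes of the circadian clock and the REV-ERB nuclear receptors: Arntl, Clock, Per1, Per2, Per3, Cry1, Cry2, Nr1d1, Nr1d2 and Dbp. They were taken by gene symbol from an RNA-sequencing table of 18392 genes, and all 10 were listed. The cells were alveolar macrophages, the phagocytes that live in the air spaces, sorted by fluorescence from the lungs of C57BL/6 mice 6 weeks of age. Control mice carried floxed Hdac3 alleles (Hdac3fl/fl). Knockout mice carried the same alleles and a Cre recombinase (Cd11c-CreHdac3fl/fl) driven by the promoter of Cd11c, the integrin gene Itgax, which is active in alveolar macrophages and dendritic cells. There were 3 libraries in each group, and whether each was a mouse of its own is not said in the labels. Hence p-values reflect the variation among these 6 libraries, which may be technical. The controls carried no Cre, so Cre itself and the loss of Hdac3 cannot be told apart. The time of day at which the lungs were taken is not given in the sources used here. Clock transcripts vary over the day, so a difference in collection time between the groups and a difference in genotype cannot be told apart for any gene below.

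In the mammalian clock, BMAL1 (the product of Arntl) and CLOCK bind E-boxes as a dimer and switch on the Per, Cry, Nr1d1, Nr1d2 and Dbp genes. PER and CRY proteins return to inhibit that dimer. REV-ERB-alpha (Nr1d1) and REV-ERB-beta (Nr1d2) bind ROR response elements and repress Arntl and Clock, and in mouse liver REV-ERB-alpha does so by recruiting the corepressor NCoR with the histone deacetylase HDAC3. Mouse macrophages hold a working clock, and REV-ERB proteins are known there as repressors of chemokine and inflammasome genes.

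Hdac3 itself read 17.71, 19.89 and 16.94 FPKM (fragments per kilobase of transcript, scaled to the library's mapped fragments) in control libraries 1 to 3 and 4.36, 5.05 and 3.97 FPKM in knockout libraries 1 to 3. Of 10847 genes whose mean over the 6 libraries reached 1 FPKM, 69.8% were called at a limma adjusted p under 0.05 in the values as deposited, 11.0% higher and 58.8% lower in knockouts, with a median log2 change of -0.31. When libraries were rescaled by TMM, a trimmed mean of log ratios, 56.5% were called, 31.5% higher and 25.0% lower, with a median of 0.04. The main log2 changes of tested genes below are therefore given under both scalings. Marker counts and sums, and log2 changes of genes under a mean of 1 FPKM, are as deposited only. The summed level of 11 alveolar macrophage markers was 17618 to 19942 FPKM in controls and 22457 to 29284 FPKM in knockouts, and most of it was Chil3, a secreted chitinase-like protein (mean 12877 FPKM in controls and 21886 FPKM in knockouts). Of these 11, 4 were higher in every knockout library (Itgax, Car4, Chil3 and Mrc1) and 5 lower (Marco, Pparg, Krt79, Ear1 and Ear2). Beside them, 8.85% of all 18392 genes were higher in this way and 46.5% lower, or 12.1% and 62.4% of tested genes. Ear1 fell from 980 ± 57.8 to 31.8 ± 2.49 FPKM, 30.8-fold. Of 8 markers of interstitial macrophages and monocytes, 4 were higher in every knockout library and 4 lower, beside 8.85% and 46.5% of all 18392 genes. C1qb stood at 0.31 to 0.82 FPKM in controls and 1.58 to 2.40 FPKM in knockouts. Ccr2 went the other way, at 2.08 to 2.63 FPKM in controls and 0.66 to 0.95 FPKM in knockouts. Of 31 markers of neutrophils, eosinophils, lymphocytes, epithelium, endothelium and stroma, 16 were lower in every knockout library than in every control library and 0 were higher, beside 46.5% and 8.85% of all 18392 genes. By list these 16 were 1 of 8 markers of neutrophils (Csf3r), 1 of 4 of eosinophils and 6 of 7 of lymphocytes. For epithelium they were 5 of 6, and for endothelium and stroma 3 of 6. Epithelial sums were 96.4 to 290 FPKM in controls against 21.4 to 90.7 FPKM in knockouts. Scgb1a1, part of these sums, overlapped between groups (29.62 to 162.73 against 4.75 to 56.52 FPKM) and was not called. Sums for endothelium and stroma were 16.7 to 40 FPKM against 5.63 to 11.2 FPKM. Those for lymphocytes were 14.9 to 28.2 FPKM against 5.47 to 6.78 FPKM. None of the 31 was at 0 in all 6 libraries, but the eosinophil genes Ccr3, Epx and Prg2 and the neutrophil gene Ly6g were at or near 0 throughout.

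Of the 10 clock genes, 7 reached that mean and were tested, and each of these 7 stood above 1 FPKM in every library. Per1, Arntl and Clock were called lower and Cry1 higher in knockouts as deposited, which is 4 of 7 beside 69.8% of all tested genes. After TMM scaling Per1 and Arntl were called lower and Cry1 higher, which is 3 of 7 beside 56.5%. A share near that of all genes does not set the clock genes apart. Per2, Nr1d1 and Nr1d2 were not called under either scaling. Per3, Cry2 and Dbp stayed under the level tested. The groups did not overlap for 5 of the 10, beside 55.3% of all genes in the table. The median log2 change of the 7 was -0.16 as deposited and 0.16 after TMM scaling.

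**Figure D1:**
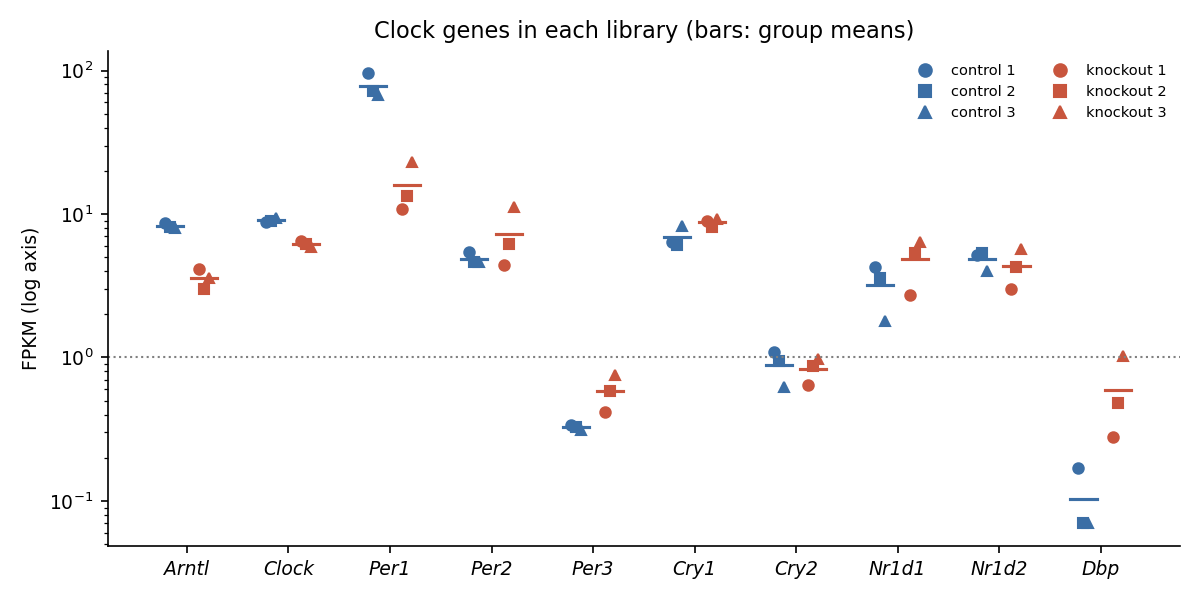
FPKM on a log axis of the 10 clock genes in each of the 6 libraries, with a marker shape per library number, horizontal bars for the group means and a dotted line at 1 FPKM, the lowest mean tested. Per1 lies far above the other genes in controls, and the control and knockout points of Per1, Arntl, Clock, Per3 and Dbp do not overlap.

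By level in FPKM, which is per length and so can be compared between genes, Per1 led in both groups, with a mean of 78.5 FPKM in controls and 15.8 FPKM in knockouts. Clock at 9.01 FPKM and Arntl at 8.27 FPKM came next in controls, ahead of Cry1, Per2, Nr1d2, Nr1d1, Cry2, Per3 and Dbp. The control values of Arntl and Cry1, of Per2 and Nr1d2, and of Nr1d2 and Nr1d1 overlapped between these neighbours. In knockouts the order was Per1, Cry1, Per2, Clock, Nr1d1, Nr1d2, Arntl, Cry2, Dbp and Per3, and the only neighbours whose values did not overlap were Per1 with Cry1 and Arntl with Cry2. Arntl thus stood at rank 3 of the 10 in controls and at rank 7 in knockouts.

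Some promoter windows of these genes hold elements bound by clock proteins. Those shown are the windows with a match of the called genes Arntl, Per1 and Cry1, and those of Nr1d1 and Per3. Windows of 300 bases (250 before to 50 after a start site, RefSeq on GRCm38.p6) were found for 9 of the 10 genes, 13 windows in all. Capitals mark matches, on either strand, to the E-box CACGTG, its variant CACGTT, the core of the ROR response element (TAGGTCA or TGGGTCA) and the D-box (TTATGTAA or TTACGTAA).
Arntl, chr7:113207261-113207560, plus strand: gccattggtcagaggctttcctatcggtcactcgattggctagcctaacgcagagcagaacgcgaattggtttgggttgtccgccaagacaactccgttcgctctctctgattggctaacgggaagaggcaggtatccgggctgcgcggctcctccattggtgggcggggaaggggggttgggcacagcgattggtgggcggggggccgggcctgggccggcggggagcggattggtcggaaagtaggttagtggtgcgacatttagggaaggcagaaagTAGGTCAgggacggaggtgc
Per1, chr11:69098699-69098998, plus strand: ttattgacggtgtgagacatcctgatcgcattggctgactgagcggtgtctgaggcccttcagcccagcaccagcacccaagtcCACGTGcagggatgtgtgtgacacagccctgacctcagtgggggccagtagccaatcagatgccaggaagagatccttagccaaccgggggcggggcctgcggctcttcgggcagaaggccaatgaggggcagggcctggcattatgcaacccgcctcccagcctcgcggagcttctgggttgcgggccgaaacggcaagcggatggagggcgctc
Cry1, chr10:85185005-85185304, minus strand: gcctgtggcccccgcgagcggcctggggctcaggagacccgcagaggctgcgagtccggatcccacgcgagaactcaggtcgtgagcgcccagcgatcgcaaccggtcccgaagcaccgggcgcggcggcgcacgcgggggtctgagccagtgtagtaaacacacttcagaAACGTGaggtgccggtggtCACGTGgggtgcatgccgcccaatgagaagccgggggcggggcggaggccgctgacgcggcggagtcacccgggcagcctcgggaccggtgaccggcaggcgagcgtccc
Nr1d1, chr11:98775328-98775627, minus strand: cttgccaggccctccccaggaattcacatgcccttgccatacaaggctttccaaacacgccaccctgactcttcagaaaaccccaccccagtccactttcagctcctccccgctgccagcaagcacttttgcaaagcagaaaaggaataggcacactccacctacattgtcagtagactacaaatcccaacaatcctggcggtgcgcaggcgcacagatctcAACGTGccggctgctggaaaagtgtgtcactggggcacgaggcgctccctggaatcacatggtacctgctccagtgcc
Per3, chr4:151044616-151044915, minus strand: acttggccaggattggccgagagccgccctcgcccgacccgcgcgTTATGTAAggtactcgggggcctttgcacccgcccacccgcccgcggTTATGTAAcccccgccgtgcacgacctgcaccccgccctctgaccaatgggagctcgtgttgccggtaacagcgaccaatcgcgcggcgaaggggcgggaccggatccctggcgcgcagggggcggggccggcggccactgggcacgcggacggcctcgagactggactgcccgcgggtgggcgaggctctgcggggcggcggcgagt

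The Arntl window holds a ROR-type match 30 bases after the start site, which also lies past the end of the other Arntl window. The Per1 window holds an E-box at position -166 from the start site. The Cry1 window holds an E-box and an E-box variant, the Nr1d1 window an E-box variant, and the Per3 window a D-box sequence at positions -205 and -158. The Cry2 window holds an E-box variant, while the windows of Nr1d2, Clock and Dbp, the other Arntl window and the other Per1 window hold none of these letters. Only these exact letters were searched. A near form such as TAGGTTA, which both Arntl windows hold before the start site or close to it, was not counted or marked. Among all 32851 promoter windows of this length, 7.15% hold the E-box, 4.68% its variant, 6.45% a ROR-type match and 1.06% a D-box. No motif overlapped another in the windows printed. A match is a description of the sequence, and binding was not measured here.

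Of the activators, Arntl encodes BMAL1, the partner of CLOCK without which the clock stops in mice. It read 8.66, 8.11 and 8.04 FPKM in controls and 4.14, 2.99 and 3.58 FPKM in knockouts. Every knockout library lay below every control library, and the control values were close together. The mean fell from 8.27 ± 0.34 to 3.57 ± 0.575 FPKM (SD, n = 3 per group), 2.32-fold lower in knockouts, with a log2 change of -1.03 on the scale of log2(FPKM + 1) (SE 0.10; limma adjusted p = 2.3e-05). With TMM the log2 change was -0.69 (95% interval -0.92 to -0.46; adjusted p = 4.0e-04 by limma). The RefSeq gene is on chromosome 7 from 113178471 to 113314126 (GRCm38).

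Clock, whose product is the other partner of the activating dimer, read 8.86, 8.87 and 9.31 FPKM in controls and 6.45, 6.19 and 5.93 FPKM in knockouts. The groups did not overlap. The mean fell from 9.01 ± 0.257 to 6.19 ± 0.26 FPKM, with a log2 change of -0.48 (SE 0.07; limma adjusted p = 2.0e-04). After TMM scaling the log2 change was -0.13 and was not called (95% interval -0.27 to 0.02; limma adjusted p = 0.13). Less the median of all tested genes, the change as deposited was -0.17. The gene spans chromosome 5 from 76209868 to 76305603.

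Among the Period genes, which encode inhibitors of the activating dimer, the 3 members went different ways. Per1, whose transcription is also induced within a short time by cAMP and glucocorticoid signals, read 95.73, 72.09 and 67.54 FPKM in controls and 10.88, 13.37 and 23.21 FPKM in knockouts. All knockout libraries lay well below all control libraries, and knockout library 3 was the highest of its group. The mean fell from 78.5 ± 15.1 to 15.8 ± 6.52 FPKM, 4.96-fold lower in knockouts, with a log2 change of -2.29 (SE 0.32; limma adjusted p = 0.0022). After TMM scaling it was -1.91 (limma adjusted p = 0.0065). Leaving out 1 library at a time gave log2 changes of -2.59 to -2.07, each called. Per1 lies on chromosome 11 from 69095108 to 69109965.

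Per2, on chromosome 1 from 91415977 to 91459351, read 5.42, 4.63 and 4.62 FPKM in controls and 4.38, 6.18 and 11.10 FPKM in knockouts. The groups overlapped, since knockout library 1 lay below every control and knockout library 3 above all others. The mean was 4.89 ± 0.459 FPKM in controls and 7.22 ± 3.48 FPKM in knockouts, and the log2 change of 0.40 was not called (95% interval -0.38 to 1.18; limma adjusted p = 0.29). After TMM scaling it was 0.74, not called (95% interval -0.08 to 1.55; limma adjusted p = 0.10). It was 0.67 and called without knockout library 1 (limma adjusted p = 0.044) and 0.08 without knockout library 3 (limma adjusted p = 0.62). Per3, the low member of the family on chromosome 4 from 150997018 to 151044707, read 0.34, 0.33 and 0.31 FPKM in controls and 0.42, 0.58 and 0.75 FPKM in knockouts. These groups did not overlap. When genes down to a mean of 0.1 FPKM were tested, Per3 was higher in knockouts by 0.25 on the log2(FPKM + 1) scale (limma adjusted p = 0.042), and with no filter it was not called (limma adjusted p = 0.061).

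The ratio of Per1 to Per2 within a library does not depend on how libraries are scaled. Its log2 was 4.14, 3.96 and 3.87 in controls and 1.31, 1.11 and 1.06 in knockouts. The libraries of a group lay close together although the knockout levels of both genes were spread over more than 2-fold (highest over lowest 2.13 for Per1 and 2.53 for Per2). The difference was -2.83 with SDs of 0.14 and 0.13. Over 20 assignments of the libraries to groups, the two-sided exact permutation p was 0.1, the smallest that 3 against 3 libraries can give.

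The Cryptochrome genes encode the strongest repressors of the activating dimer. Cry1, on chromosome 10 from 85131700 to 85185054, read 6.33, 6.11 and 8.21 FPKM in controls and 8.96, 8.12 and 9.19 FPKM in knockouts. The groups overlapped, because control library 3 lay above knockout library 2. With limma the mean rose from 6.88 ± 1.15 to 8.76 ± 0.563 FPKM, with a log2 change of 0.32 (SE 0.10; limma adjusted p = 0.023) and of 0.67 after TMM scaling (limma adjusted p = 5.1e-04). As deposited the call was lost without control library 1 (limma adjusted p = 0.074), control library 2 (limma adjusted p = 0.087), knockout library 1 (limma adjusted p = 0.068) or knockout library 3 (limma adjusted p = 0.076), at log2 changes of 0.25 to 0.30. Cry2, on chromosome 2 from 92403646 to 92434085, read 1.09, 0.94 and 0.62 FPKM in controls and 0.64, 0.87 and 0.97 FPKM in knockouts. The groups covered the same range. Tested with genes down to 0.1 FPKM, its log2 change was -0.04 (95% interval -0.32 to 0.24; limma adjusted p = 0.79).

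The REV-ERB genes are the members most directly tied to Hdac3. Nr1d1, on chromosome 11 from 98767932 to 98775377, read 4.29, 3.59 and 1.79 FPKM in controls and 2.72, 5.39 and 6.40 FPKM in knockouts. The groups overlapped, and within each group the highest library stood well above the lowest (2.4-fold in controls and 2.35-fold in knockouts). The mean was 3.22 ± 1.29 FPKM in controls and 4.84 ± 1.9 FPKM in knockouts. The log2 change of 0.46 was not called (95% interval -0.49 to 1.41; limma adjusted p = 0.31), nor was that of 0.77 after TMM scaling (95% interval -0.20 to 1.73; limma adjusted p = 0.14). It ranged from 0.19 without control library 3 to 0.75 without knockout library 1 and was called in neither. An exon of Thra, a thyroid hormone receptor gene on the other strand of chromosome 11, shares 263 bases with an Nr1d1 exon, and strand handling is not given in the sources used here, so reads of the shared bases cannot be told apart. Thra fell from 8.04 ± 0.534 to 4.41 ± 0.435 FPKM (log2 change -0.74 as deposited and -0.40 after TMM scaling).

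Nr1d2, on chromosome 14 from 18204056 to 18239106, read 5.21, 5.39 and 3.98 FPKM in controls and 3.02, 4.26 and 5.69 FPKM in knockouts. The knockout libraries spanned the range of the controls on both sides. The mean was 4.86 ± 0.767 FPKM in controls and 4.32 ± 1.34 FPKM in knockouts. The log2 change was -0.16 as deposited (95% interval -0.61 to 0.29; limma adjusted p = 0.47) and 0.16 after TMM scaling (95% interval -0.31 to 0.64; limma adjusted p = 0.52), so its sign turned with the scaling and it was not called under either.

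Dbp, on chromosome 7 from 45705100 to 45710203, encodes an activator that binds D-boxes and is among the most strongly rhythmic transcripts of mouse liver. Here it was the lowest member in controls, with 0.17, 0.07 and 0.07 FPKM, against 0.28, 0.48 and 1.02 FPKM in knockouts. All knockout libraries lay above all control libraries. From the steps in the FPKM of low genes the depth was estimated at 17800000 to 19900000 fragments per library, which puts about 6, 2 and 2 fragments behind the control values of Dbp and about 10, 17 and 36 behind the knockout values. These few fragments limit the precision of the control level. Tested with genes down to 0.1 FPKM, the log2(FPKM + 1) of Dbp was higher in knockouts by 0.50 (95% interval 0.14 to 0.87; limma adjusted p = 0.026). An exon of Sphk2, a sphingosine kinase gene on the other strand, shares 539 bases with a Dbp exon, with the same limit. Sphk2 stood at 15.3 ± 0.447 FPKM in controls and 15.7 ± 0.553 FPKM in knockouts (log2 change 0.04 as deposited, not called, and 0.41 after TMM scaling, called higher). That limit also holds for Cry2 and Arntl, whose exons share 149 bases with D930015M05Rik and 33 bases with Gm45355 on the other strand. D930015M05Rik read 0.29, 0.00 and 0.05 FPKM in controls and 0.05, 0.09 and 0.00 FPKM in knockouts. Gm45355 was not listed among the 18392 genes.

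**Figure D2:**
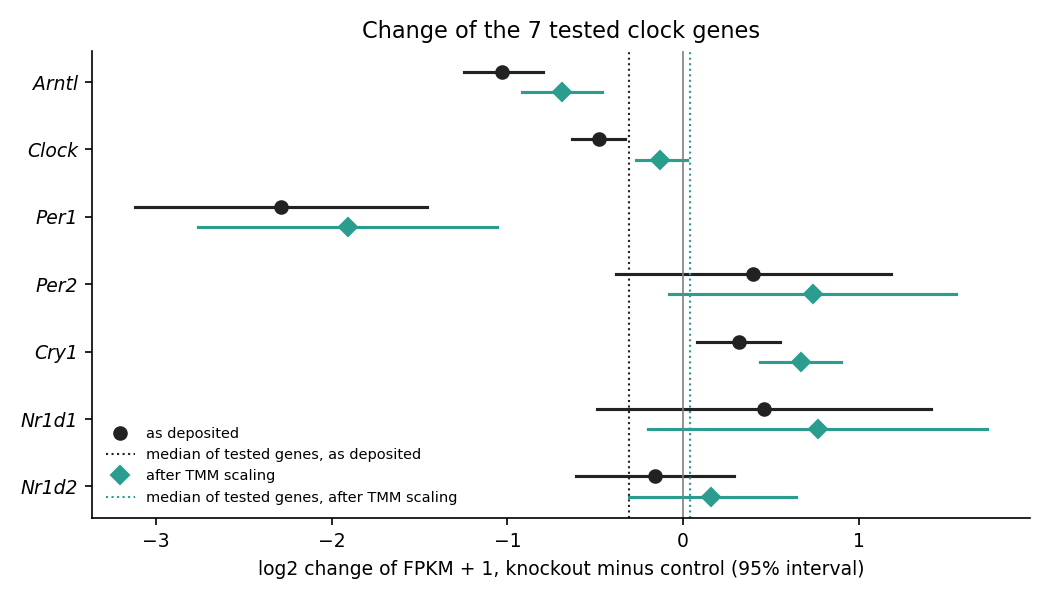
Log2 change of FPKM + 1, knockout minus control, with 95% intervals for the 7 tested clock genes, as deposited (circles) and after TMM scaling (diamonds). Dotted lines mark the median of all tested genes, at -0.31 and 0.04. The intervals of Per1 and Arntl lie below 0 and that of Cry1 above 0 under both scalings, while that of Clock reaches 0 after TMM scaling.

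Ratios between members within a library were compared for 7 pairs, with an exact permutation test whose smallest two-sided p is 0.1 and whose smallest value adjusted over the 7 pairs was 0.14. The log2 ratio of Arntl to Nr1d1, the activator against its repressor, was 1.01, 1.18 and 2.17 in controls and 0.61, -0.85 and -0.84 in knockouts. Arntl thus stood above Nr1d1 in every control library and below it in knockout libraries 2 and 3. The difference was -1.81 (p = 0.1 by the exact permutation test). The log2 ratio of Dbp to Arntl went from -6.46 ± 0.68 to -2.78 ± 1.04, a difference of 3.68 at p = 0.1 by the exact permutation test. It rests on the few Dbp fragments of the controls, and with 1 FPKM added to both genes it was 1.53. The ratio of Clock to Arntl was 0.12 ± 0.09 in controls and 0.81 ± 0.22 in knockouts on the log2 scale, and that of Nr1d1 to Nr1d2 -0.67 ± 0.44 and 0.12 ± 0.25. Neither of these overlapped between the groups, at the same smallest p of 0.1 by the exact permutation test. The ratios of Per3 to Per2 and of Cry1 to Cry2 overlapped between the groups (p = 0.2 and p = 0.3 by the exact permutation test). All separate pairs but Nr1d1 with Nr1d2 hold Arntl or Per1, whose groups did not overlap by themselves. The share of separate ratios among other gene pairs was not computed. Arntl thus stood lower relative to Clock, Dbp and Nr1d1 in every knockout library, whatever the scaling.

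**Figure D3:**
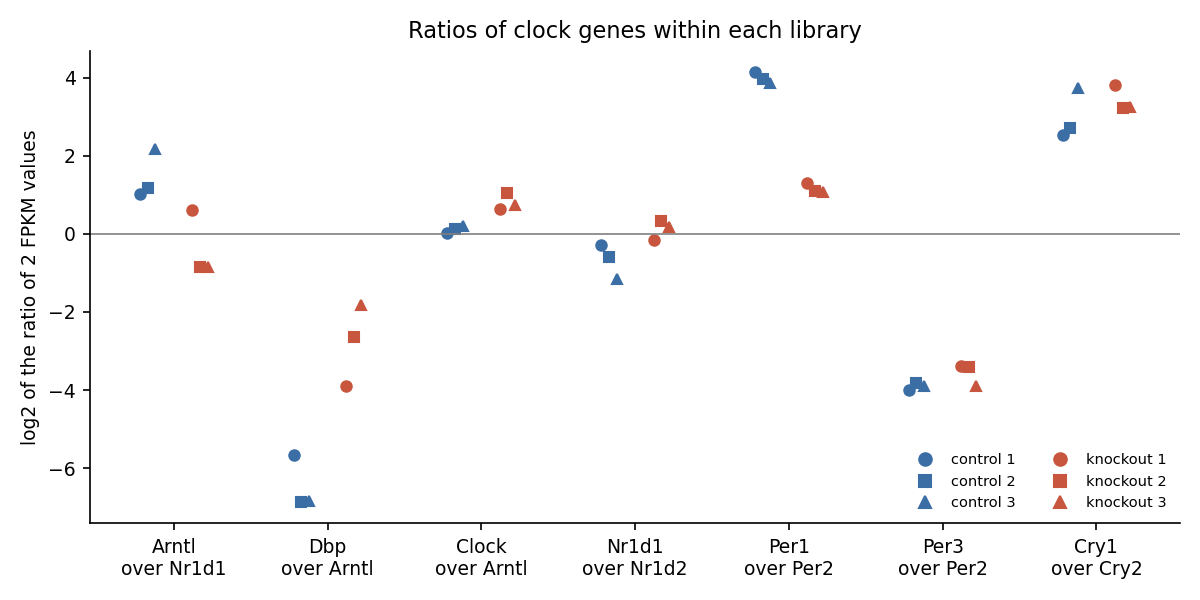
Log2 of the ratio of FPKM values of 2 clock genes within each library, for 7 pairs, with blue for control, red for knockout and a shape per library number. The groups are separate for the first 5 pairs, of which all but Nr1d1 over Nr1d2 hold Arntl or Per1. For Per1 over Per2 the 3 libraries of each group nearly coincide, at 3.87 to 4.14 and 1.06 to 1.31.

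The members also differed between libraries of 1 group in a shared order. In knockouts, 7 of the 10 (Nr1d1, Nr1d2, Per1, Per2, Per3, Cry2 and Dbp) were highest in library 3 and lowest in library 1. Of the 7 tested members 4 had that order, beside 16.0% of all tested genes, and 4 were highest in control library 1, beside 28.8%. Arntl and Clock were instead highest in knockout library 1. Tef, a D-box activator related to Dbp, followed the order of library 3 over 2 over 1 at 2.27, 3.39 and 6.05 FPKM in knockouts. Of the other clock genes named further below, Nfil3, Ciart, Crebbp and Parp1 also had that order. Bhlhe40, Bhlhe41, Rora, Csnk1e, Fbxw7, Huwe1, Fbxw11, Ep300, Sirt1 and Id2 did not. Of the 31 markers of other cells 21 were highest in control library 1, and 11 had that order in knockouts. The 11 were 4 of 6 epithelial, 2 of 7 lymphocyte, 1 of 8 neutrophil and 1 of 4 eosinophil markers, and 3 of 6 of endothelium and stroma. Those 3 were stromal genes, and no endothelial marker had that order. The surfactant gene Sftpc, made by alveolar type 2 cells, read 87.98, 59.00 and 42.16 FPKM in controls and 12.69, 16.10 and 26.11 FPKM in knockouts. The collagen gene Col3a1 of stromal cells read 5.11, 4.53 and 1.95 FPKM in controls and 0.81, 1.36 and 2.96 FPKM in knockouts, and was not called. The endothelial gene Cldn5, at 0.95, 0.85 and 0.85 FPKM in knockouts, did not have that order. Among the members, Per1 shared with Sftpc both this order and the lower level in knockouts, whereas Dbp and Per3 were higher in every knockout library. In bulk RNA, fewer cells of a type and less RNA per cell cannot be told apart, and the part of these other cells in the clock values was not tested.

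**Figure D4:**
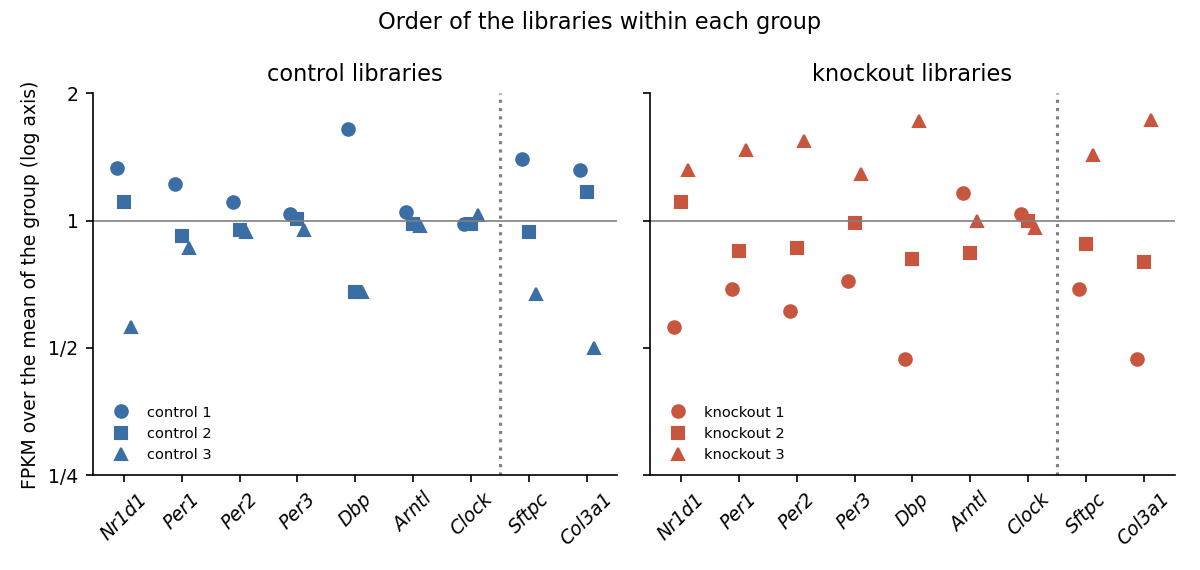
FPKM over the mean of the group, on a log axis, for 7 clock genes and, right of the dotted line, the epithelial gene Sftpc and the stromal gene Col3a1, in control (left) and knockout (right) libraries. Knockout library 3 is the highest for Nr1d1, Per1, Per2, Per3, Dbp, Sftpc and Col3a1, at 1.29 to 1.73 of the group mean, and not for Arntl or Clock.

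Beyond the 10, a list of 34 other clock genes gave 27 that were tested, of which 5 rose and 16 fell as deposited and 10 rose and 8 fell after TMM scaling. That is 21 and 18 called of 27, beside 69.8% and 56.5% of all genes, and their median log2 change was -0.25 and 0.03. In the group of bHLH and bZIP factors 4 genes were tested, of which 2 rose and 2 fell as deposited, against 2 and 1 after TMM scaling. That is 4 and 3 called of 4, beside the same 69.8% and 56.5% of all genes. Nfil3, the repressor that competes with DBP for D-boxes, read 194.52, 152.18 and 126.27 FPKM in controls and 28.06, 33.19 and 41.88 FPKM in knockouts. It fell by 2.16 on the log2 scale (limma adjusted p = 2.8e-04), or by 1.77 after TMM scaling. Thus the D-box repressor was 4.59-fold lower in mean FPKM while Tef rose by 0.83 (limma adjusted p = 0.031), or 1.11 after TMM scaling. The call of Tef as deposited was lost without control library 1, 2 or 3 or without knockout library 2, with limma adjusted p of 0.088, 0.097, 0.11 and 0.069.

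The E-box repressors DEC1 and DEC2 are encoded by Bhlhe40 and Bhlhe41. Bhlhe41 rose from 17.24, 18.38 and 19.12 FPKM in controls to 42.99, 43.16 and 37.74 FPKM in knockouts (log2 change 1.13, and 1.52 after TMM scaling; limma adjusted p = 2.3e-06 as deposited). Bhlhe40 read 168.01, 132.17 and 88.02 FPKM in controls and 79.20, 73.89 and 74.85 FPKM in knockouts. It fell as deposited (log2 change -0.71; limma adjusted p = 0.044) and was not called after TMM scaling (-0.32 on the log2 scale; limma adjusted p = 0.33) or, as deposited, without control library 2 or any single one of the knockout libraries. Ciart, a repressor of the BMAL1 dimer, stayed under the level tested, at 0.32 to 1.91 FPKM in controls and 0.37 to 0.49 FPKM in knockouts. Of the ROR receptors, which activate the elements that REV-ERB proteins repress, only Rora was tested. Its means were 4.66 ± 0.592 FPKM in controls and 4.12 ± 0.522 FPKM in knockouts, with no call (log2 change -0.14 as deposited and 0.18 after TMM scaling).

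Kinases and ubiquitin-pathway genes that set the stability of clock proteins were mostly lower as deposited, with 1 risen and 10 fallen of 12 tested, against 3 risen and 4 fallen after TMM scaling. Among all tested genes 11.0% rose and 58.8% fell as deposited, and 31.5% and 25.0% with TMM. Csnk1e, a kinase of PER proteins, fell from 39.6 ± 1.67 to 21 ± 0.72 FPKM (log2 change -0.88, and -0.50 after TMM scaling). Fbxw7 and Huwe1, both ubiquitin ligase genes, fell by 0.65 and 0.61 as deposited and by 0.32 and 0.23 after TMM scaling. Fbxw11, of another ubiquitin ligase, changed direction with the scaling, called at -0.18 as deposited and at 0.19 with TMM. Among partners of clock proteins, 2 of 10 tested rose and 4 fell as deposited, against 5 and 3 after TMM scaling, beside the same shares of all genes. The acetyltransferase genes Crebbp and Ep300 fell with log2 changes of -0.91 and -0.83 (-0.57 and -0.45 after TMM scaling), and the deacetylase gene Sirt1 fell with -0.90 (-0.56 after TMM scaling). Parp1 turned from lower (-0.22) to higher (0.15) with the scaling. Id2, an inhibitor of bHLH factors, rose from 98 ± 30.6 to 238 ± 1.19 FPKM (log2 change 1.32, and 1.72 after TMM scaling).

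**Figure D5:**
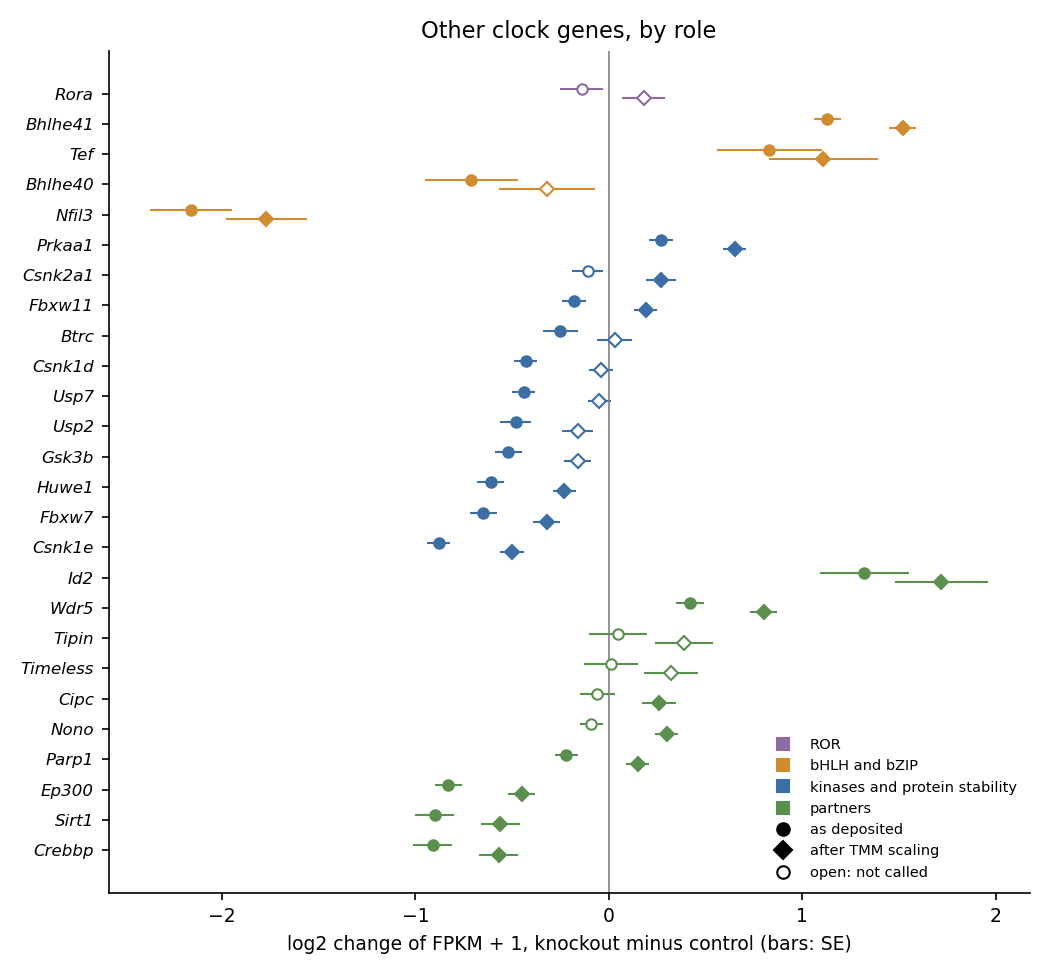
Log2 change of FPKM + 1, knockout minus control, with SE bars, for 26 of the 27 tested clock genes other than the 10, coloured by role, as deposited (circles) and after TMM scaling (diamonds), with open symbols where a gene was not called. Nfil3 lies lowest at -2.16 and -1.77, and Id2, Bhlhe41 and Tef lie highest, while most kinase and ubiquitin-pathway genes move towards 0 after TMM scaling.

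In a hand-made list of 8 genes taken as outputs of the clock, all were tested, and 2 rose and 2 fell as deposited, against 5 and 1 after TMM scaling. That is 4 and 6 called of 8, beside 69.8% and 56.5% of all genes. Nampt, an enzyme of NAD synthesis whose gene is driven by the BMAL1 dimer in mouse liver, rose from 38.2 ± 0.931 to 97.8 ± 7.92 FPKM (log2 change 1.33, and 1.72 after TMM scaling). Noct, a rhythmic phosphatase gene, fell from 42.7 ± 2.66 to 20.1 ± 2.28 FPKM (log2 change -1.06, and -0.67 after TMM scaling). Tspan4 rose (log2 change 1.62, and 1.96 after TMM scaling), and Gpt2 fell as deposited only (log2 change -0.24, and 0.05 after TMM scaling). The call of Gpt2 (limma adjusted p = 0.044) was lost with a lower filter or none, and without control library 1 or 2 or any single knockout library (limma adjusted p of 0.068 to 0.14). In the corepressor to which HDAC3 belongs, 1 of 6 genes rose and 3 fell as deposited, Hdac3 included, against 3 and 2 after TMM scaling, so 4 and 5 of 6 were called beside those shares. Ncor1 fell under both (log2 changes -0.64 and -0.26), Tbl1xr1 rose under both (0.56 and 0.93), and Gps2 fell as deposited only (-0.43 and -0.04).

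Of 8 genes reported elsewhere as repressed by REV-ERB proteins in mouse macrophages or in human cells, 6 were tested, of which 1 rose and 4 fell as deposited and 2 rose and 3 fell after TMM scaling. The 4 of 6 that fell stand beside 58.8% of all tested genes, and the 3 of 6 beside 25.0%. The 1 of 6 that rose stands beside 11.0%, and the 2 of 6 beside 31.5%. Ccl2, a chemokine that draws monocytes, read 10.51, 5.99 and 11.55 FPKM in controls and 50.90, 37.52 and 36.28 FPKM in knockouts, a rise of 2.07 on the log2 scale (limma adjusted p = 0.0014), or 2.44 after TMM scaling. Il1b, the gene of interleukin-1 beta, stood at 90.7 ± 37.2 and 162 ± 15.2 FPKM and was called higher after TMM scaling only (log2 changes 0.90 and 1.30). Nlrp3, the sensor of an inflammasome, fell from 48.7 ± 10.7 to 17.9 ± 2.1 FPKM (log2 change -1.38, and -0.99 after TMM scaling). Il6, the cytokine interleukin-6, read 6.46, 3.34 and 2.09 FPKM in controls and 0, 0.14 and 0.05 FPKM in knockouts, and it fell under both scalings (log2 changes -2.13 and -1.97). Tlr4 fell as deposited only (log2 changes -0.45 and -0.06), and Mmp9 and Cx3cr1 stayed under the level tested. The genes of this list thus changed in both directions.

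The genes whose pattern over the 6 libraries was nearest to that of Arntl, by Euclidean distance between centred log2(FPKM + 1) values, were Ammecr1, Jak2 and Plod3, at distances of 0.12, 0.14 and 0.15. Jak2 read 12.29, 11.41 and 11.11 FPKM in controls and 5.87, 4.96 and 5.60 FPKM in knockouts. The nearest to Nr1d1 were Ung, Mcm5 and Selm, at larger distances of 0.53, 0.60 and 0.61. Ung, like Nr1d1, had its lowest value in control library 3, at 2.91 FPKM beside 5.94 and 6.11, and read 6.38, 7.98 and 8.32 FPKM in knockouts.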

How the data were processed

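The authors deposited FPKM per gene, given to 2 decimals for each of the 6 libraries (per the file headers). Per the submitters' processing notes they used Bowtie2 and RSEM on mm10, with versions not given in the sources used here, and neither strand, trimming nor filters are given. Because FPKM divide by library depth, a few genes taking more of 1 library pull down all others in it. Of 18392 genes, 18342 matched RefSeq on GRCm38.p6, the assembly behind mm10, and 24 symbols turned into dates were restored.

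Genes reaching a mean of 1 FPKM were fitted together by limma 3.58.1 (R 4.3.3) on log2(FPKM + 1) (trended and robust empirical Bayes, two-sided, genotype only, Benjamini-Hochberg adjusted p under 0.05 over 10847 genes). Adding 1 FPKM understates the changes of low genes. TMM factors (30% of log ratios and 5% of levels trimmed, unweighted) were computed from the FPKM, and the scripts were tested on simulated data. Exons that overlap on opposite strands were taken from GENCODE M21. Depth was estimated from the steps in FPKM of 320 to 367 genes per library with 1 transcript. 

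Members and lists were chosen with earlier results of these data known. Named genes are the 10 members, Hdac3, up to 4 called genes per list with the largest change, and the 3 genes nearest to Nr1d1 and to Arntl. Genes that meet this rule but are counted without a name or a point in a figure are not reported here. Il1b, Tlr4, Mmp9, Cx3cr1, Rora, Ciart, Fbxw11 and Parp1 were named after their values were seen. So were Col3a1, Scgb1a1, Ccr3, Epx, Prg2, Ly6g, Chil3 and the other alveolar markers, and the overlapping genes Thra, Sphk2 and D930015M05Rik. No pairing is given in the labels, and the main fit used none. Deviations of same-numbered libraries from their group means correlated at -0.11, -0.06 and -0.09 across genes. These values cannot decide whether libraries were paired, since the deviations of the 3 libraries of a group sum to 0.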

Additional observations from a re-analysis of the deposited data

How the results depend on the processing

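Over the alternatives run (TMM and median-of-ratios scaling, pseudocounts of 0.1 and 0.5 FPKM, a lower or no filter, limma without trend and robust estimation, a replicate block, and leaving out each library), between 2 and 6 clock members were called beside 4 as reported. The lowest count, 2, came with the replicate block together with TMM scaling, where Per1 was lost (limma adjusted p = 0.052). The replicate block alone left 4 called. Same-numbered libraries correlated at -0.11 to -0.06 and differently numbered ones at 0.01 to 0.09. Whether same-numbered libraries shared a batch is not said in the labels, and these correlations cannot decide it. Leaving out 1 library gave 3 to 4 members, 17 to 19 other clock genes beside 21, and 6917 to 7288 genes in all beside 7570. The counts of 5 and 6 members came from testing all 10. Of all calls 84.2% were lower as deposited and 44.2% after TMM scaling, and the clock list turned from 16 lower of 21 to 8 of 18. The log2 change of Nr1d2, never called, changed sign to 0.16 with TMM, 0.13 with median-of-ratios scaling, 0.16 with the replicate block and TMM scaling, and, leaving out 1 library at a time, ranged from -0.34 to 0.03. That of Gpt2 turned to 0.05, 0.02 and 0.05 under the same 3 settings, and its call was lost with the replicate block (limma adjusted p = 0.073). The log2 ratio of Per3 to Per2 differed by 0.34 between groups and by -0.15 with 1 FPKM added to both. Cause was not tested. Per3, Cry2 and Dbp have values only where the filter was lowered, and Dbp rests on few fragments.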
